A study of Bos taurus with 9 samples.

Results

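The 10 genes described here encode enzymes of gluconeogenesis and of the entry of propionate and lactate into it: *PC*, *PCK1*, *PCK2*, *FBP1*, *G6PC*, *LDHA*, *LDHB*, *PCCA*, *PCCB* and *MCEE*. They were chosen by symbol, and all 10 were found among the 28786 genes of the count file, of which 21008 had a count of 1 or more in some cow. RefSeq lists *G6PC* as *G6PC1* on ARS-UCD2.0. The study took liver biopsies from lactating Holstein cows and sequenced polyA RNA from them. The thermoneutrality (TN) cows stayed in a thermoneutral environment, the heat stress (HS) cows in a hot one, with hotter days than nights, and the pair-fed (PF) cows in thermoneutrality on an amount of feed matched to what the HS cows ate. All 9 cows spent an acclimation period in thermoneutrality beforehand. Each group held 3 cows, each with 1 biopsy and 1 library. The ages of the cows are not given in the sources used here.

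Ruminants absorb very little glucose from the gut, because carbohydrate is fermented in the rumen to short-chain fatty acids, and the liver of a lactating cow makes nearly all of the glucose that the udder turns into lactose. Propionate is the main carbon source. It is activated to propionyl-CoA, carboxylated by propionyl-CoA carboxylase (subunits *PCCA* and *PCCB*), epimerized by *MCEE* and rearranged by methylmalonyl-CoA mutase to succinyl-CoA, which the citric acid cycle carries on to oxaloacetate. Lactate and alanine enter through pyruvate, which pyruvate carboxylase (*PC*) turns into oxaloacetate, and both routes then share PEP carboxykinase (*PCK1* in the cytosol, *PCK2* in the mitochondrion), fructose-1,6-bisphosphatase (*FBP1*) and the catalytic subunit of glucose-6-phosphatase (*G6PC*).

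The values are the authors' raw read counts per gene, given here as CPM, the count of a gene scaled to the TMM-normalized size of its library. Library totals ranged from 16874444 to 22557047 counts, and each of the 10 genes had at least 436 counts in every cow, so the spread between cows and not the depth sets the errors below. CPM is not corrected for transcript length, so levels are compared between cows and not between genes. Each pair of groups was compared by edgeR's quasi-likelihood F test, and p-values were adjusted by Benjamini-Hochberg over every gene tested (FDR). Fold changes are given on the log2 scale (log2FC). Differentially expressed genes (DEGs) needed FDR < 0.1 together with a fold change above 1.5. All 10 genes passed the filter on low counts in every comparison.

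TN replicate 1 stood apart from the other libraries. It lay at -61.9 on the first principal component of the 3000 most variable genes, where the other 8 cows lay between -9.77 and 22.4. The summed level of 8 hepatocyte markers (*ALB*, *APOA1*, *APOB*, *TTR*, *TF*, *FGB*, *SERPINA1* and *CPS1*), all of them detected, was 16963 CPM in this cow, against 65869 and 79108 CPM in the other TN cows, 87509 to 118805 CPM in PF cows and 60299 to 129313 CPM in HS cows. *ALB* makes up much of this sum, and without it the sum was 8360 CPM in TN replicate 1 and 29758 and 32287 CPM in the other TN cows. TN replicate 1 was the lowest TN cow in 6 of the 8 markers but not in *APOA1*, where its 826 CPM exceeded the 277 and 513 CPM of TN replicates 2 and 3, nor in *APOB*, where its 956 CPM exceeded the 825 CPM of TN replicate 2. TN replicate 1 was below the mean of its group in all 10 genes, by a median of -0.64 on the log2 scale. HS replicate 1 had the lowest hepatocyte marker sum of the HS cows, although it was the lowest in 4 of the 8 markers and the highest in *APOA1*. It was below its group mean in 9 of the 10 genes, with *LDHA* as the exception and a median of -0.51. In bulk liver, fewer hepatocytes in a biopsy and less RNA of a gene per hepatocyte cannot be told apart. Values without TN replicate 1 are therefore given for each of the 10 genes, and for the other pathway genes described against TN cows.

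**Figure D1:**
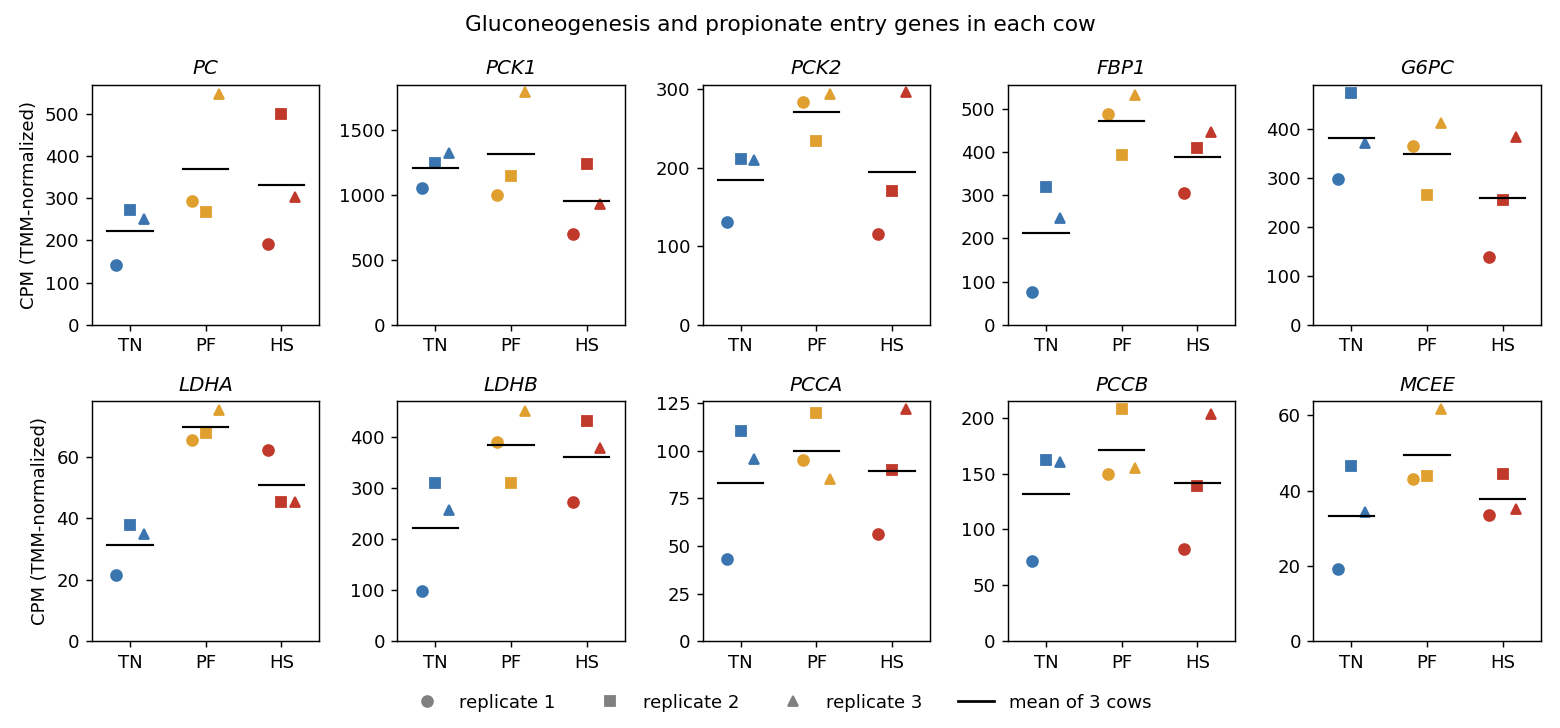
Level of each of the 10 genes in each cow (TMM-normalized CPM, linear axes from 0), with symbols for the replicate number and a black line for the mean of the 3 cows in the TN, PF and HS groups. TN replicate 1 has the lowest value of all 9 cows in 7 of the 10 panels, and only *LDHA* has TN, HS and PF cows in 3 ranges that do not overlap.

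*LDHA*, which encodes the A subunit of lactate dehydrogenase, the enzyme that interconverts lactate and pyruvate, had the smallest p-value of the 10 genes in each pair of groups. Its level was 21.5, 37.9 and 34.8 CPM in TN replicates 1, 2 and 3. In PF cows it was 65.5, 67.8 and 75.2 CPM, and in HS cows 62.0, 45.1 and 45.1 CPM. The HS cows thus lay between the other groups, above all TN cows and below all PF cows. The means were 31.4 ± 8.70 CPM in TN, 69.5 ± 5.08 CPM in PF and 50.7 ± 9.75 CPM in HS cows (SD, n = 3 each). The log2FC in PF against TN cows was 1.14 (SE 0.27), a fold change of 2.20, with an unadjusted p of 0.00133, the 34th smallest of the 14580 genes tested, and an FDR of 0.570 (edgeR). *LDHA* was therefore not a DEG with edgeR. DESeq2, the tool of the study, called it with a log2FC of 1.15 and an FDR of 0.0351, and edgeR without the filter on low counts called it with an FDR of 0.0617. Over all the alternatives the FDR ranged from 0.0351 to 1.00. Without TN replicate 1 the log2FC was 0.94 (SE 0.24) and the FDR 0.810 (edgeR), or 0.0965 by DESeq2.

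Against TN cows, *LDHA* had a log2FC of 0.67 in HS cows (SE 0.26, unadjusted p 0.0263, FDR 0.487, edgeR), or a fold change of 1.59. It was 0.48 (SE 0.22) without TN replicate 1 and 0.51 without HS replicate 1. With both cows left out, a setting chosen after seeing the data, it was 0.30 (SE 0.21). Between HS and PF cows the log2FC was -0.46 (SE 0.23, unadjusted p 0.0663, FDR 0.949, edgeR), with a 95% interval from -0.96 to 0.04. Each of these comparisons missed the FDR threshold, and DESeq2 called neither, with FDRs of 0.385 and 0.942. In a test of the 3 groups together *LDHA* had an unadjusted p of 0.00219 and an FDR of 0.293 (edgeR), and an FDR of 0.0226 with the likelihood ratio test of DESeq2.

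*LDHB* encodes the B subunit of the same enzyme. TN replicates 1, 2 and 3 had 97.7, 309 and 257 CPM. The PF cows had 389, 309.8 and 452 CPM, and the HS cows 273, 431 and 379 CPM. The PF cows lay above the TN cows, but PF replicate 2 and TN replicate 2 were almost level, and the HS cows overlapped with both groups. The group means were 221 ± 110.0 CPM in TN, 384 ± 71.2 CPM in PF and 361 ± 80.9 CPM in HS cows. The log2FC was 0.79 (SE 0.42, FDR 0.709, edgeR) in PF and 0.69 (SE 0.42, FDR 0.597) in HS against TN cows. Without TN replicate 1 the values were 0.45 and 0.35.

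Pyruvate carboxylase, *PC*, had the same order of means, with a smaller coefficient of variation than *LDHB* in TN cows and a larger one in PF and HS cows. Its level was 142, 271 and 252 CPM in TN replicates 1, 2 and 3. PF cows had 293, 267 and 549 CPM, and HS cows had 192, 499.6 and 304 CPM. A single cow was high in each of these groups, PF replicate 3 and HS replicate 2, and the groups overlapped in every pair. The log2FC was 0.73 (SE 0.39, FDR 0.709, edgeR) in PF and 0.56 (SE 0.41, FDR 0.646) in HS against TN cows. Leaving out TN replicate 1 gave 0.50 (SE 0.34) and 0.34 (SE 0.40). Without PF replicate 3 the first was 0.35, and without HS replicate 2 the second was 0.15. Between HS and PF cows it was -0.16 (SE 0.40), and it turned to 0.23 without PF replicate 3 and to 0.10 without HS replicate 1. In ARS-UCD2.0 *PC* overlaps *LRFN4*, which had 893 counts in the 9 libraries together, and *MIR2408*, which had 30 counts. *PCCA* overlaps *MIR2285AQ-2* and uncharacterized loci there, *LDHA* overlaps an uncharacterized locus, and the other 7 genes overlap none.

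In the propionate branch 0 of the 3 genes were DEGs. *PCCA*, which encodes the biotin-carrying subunit of propionyl-CoA carboxylase, had 43.0, 110.5 and 95.9 CPM in TN, 94.99, 120.0 and 85.1 CPM in PF and 56.2, 89.8 and 122 CPM in HS replicates 1, 2 and 3. *PCCB*, the other subunit, had 71.6, 162 and 160.1 CPM in TN, 149.5, 208 and 155 CPM in PF and 82.6, 138 and 203 CPM in HS cows. TN replicate 1 and HS replicate 1 were the lowest cows for both subunits, and the 3 groups overlapped in both. Against TN cows the log2FCs of *PCCA* and *PCCB* were 0.26 (SE 0.35) and 0.37 (SE 0.35) in PF cows and 0.09 (SE 0.38) and 0.09 (SE 0.40) in HS cows. Without TN replicate 1 they were -0.04 and 0.09 in PF and -0.21 and -0.19 in HS cows. *MCEE*, the methylmalonyl-CoA epimerase, had 19.1, 46.6 and 34.3 CPM in TN, 42.9, 43.8 and 61.5 CPM in PF and 33.5, 44.4 and 35.1 CPM in HS cows. Its ranges also overlapped in every pair. Its log2FC was 0.56 (SE 0.32, FDR 0.709, edgeR) in PF against TN, 0.16 (SE 0.30, FDR 0.871) in HS against TN and -0.40 (SE 0.24, FDR 1.00) in HS against PF cows. Leaving out TN replicate 1 gave 0.29 (SE 0.27) and -0.11 (SE 0.23) for the first pair of values.

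*PCK1*, the cytosolic PEP carboxykinase, had the smallest coefficient of variation of the 10 genes among TN cows, 11.6%, with 1050.1, 1247 and 1321 CPM. PF cows had 1003, 1146 and 1793 CPM and HS cows 696, 1239 and 928 CPM. The 3 groups overlapped, with PF replicate 3 the highest cow and HS replicates 1 and 3 the lowest. The means were 1206 ± 140.1 CPM in TN, 1314 ± 421 CPM in PF and 954 ± 273 CPM in HS cows. The log2FC of *PCK1* was -0.36 (SE 0.38, FDR 0.747, edgeR) in HS against TN cows, with a 95% interval from -1.21 to 0.48. It was -0.47 (SE 0.34, FDR 1.00) in HS against PF cows and 0.11 (SE 0.36, FDR 0.939) in PF against TN cows. Against the TN cows other than replicate 1, *PCK1* had -0.43 (SE 0.35) in HS and 0.04 (SE 0.28) in PF cows. *PCK1* was below 0 in HS against TN cows in every alternative run, from -0.59 to -0.18, without passing the threshold in any.

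*PCK2*, the mitochondrial form, had 131, 210.4 and 209.9 CPM in TN, 283, 234 and 293 CPM in PF and 115, 170.2 and 296 CPM in HS replicates 1, 2 and 3. All PF cows were above all TN cows, while the HS cows covered the range of both groups, with a coefficient of variation of 47.8% against 11.7% in PF cows. The log2FC was 0.55 (SE 0.31, FDR 0.709, edgeR) in PF against TN and -0.49 (SE 0.34, FDR 1.00) in HS against PF cows. In HS against TN cows it was 0.06 (SE 0.38). *PCK2* had 0.37 (SE 0.25) in PF and -0.12 (SE 0.38) in HS cows when TN replicate 1 was left out.

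*FBP1*, which removes a phosphate from fructose 1,6-bisphosphate, had the widest range of the 10 genes, 7.11-fold from the lowest to the highest cow. TN replicates 1, 2 and 3 had 74.9, 319.5 and 246 CPM. PF cows had 489, 394 and 533 CPM and HS cows 306, 410.1 and 446 CPM. All PF cows exceeded all TN cows, whereas HS replicate 1 was below TN replicate 2. The means were 214 ± 126, 472 ± 71.0 and 388 ± 72.8 CPM in TN, PF and HS cows. The log2FC was 1.14 (SE 0.46, unadjusted p 0.0312, FDR 0.708, edgeR) in PF and 0.85 (SE 0.47, FDR 0.577) in HS against TN cows. Without TN replicate 1 these values were 0.74 (SE 0.26) and 0.45 (SE 0.30).

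*G6PC*, whose product releases free glucose, was the only gene with a lower mean in both PF and HS cows than in TN cows. It had 297, 472 and 369.7 CPM in TN, 365, 265 and 411 CPM in PF and 139, 254 and 382 CPM in HS replicates 1, 2 and 3. The ranges of all groups overlapped, since HS replicate 3 was above TN replicates 1 and 3. The log2FC was -0.58 (SE 0.40, FDR 0.636, edgeR) for HS cows and -0.14 (SE 0.33, FDR 0.924) for PF cows, each against TN. *G6PC* had -0.71 (SE 0.41) in HS and -0.27 (SE 0.27) in PF cows when TN replicate 1 was left out. The difference between HS and TN cows kept its sign in every alternative run, from -0.97 to -0.27, and missed the threshold in each. The sign of the PF difference turned to 0.05 without TN replicate 2 and to 0.03 without PF replicate 2.

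Counted over the 10 genes, 0 were DEGs by edgeR in any pair. Of all genes tested, 0.0892% were DEGs between HS and TN cows, 0.0276% between HS and PF cows and 0% between PF and TN cows. An unadjusted p under 0.05 was reached by 1 of 10 against TN in HS cows (*LDHA*), by 2 of 10 against TN in PF cows (*LDHA* and *FBP1*) and by 0 of 10 between HS and PF cows, where the shares of all genes were 9.36%, 6.88% and 5.32%. DESeq2 called 1 of 10 between PF and TN cows (*LDHA*, higher in PF), where it called 0.555% of all genes and 0.207% as higher. It called 0 of 10 in the other pairs, where 1.75% (HS and TN) and 0.771% (HS and PF) of genes were called. In the test of the 3 groups together 0 of 10 passed (edgeR), where 0.0464% of genes did, with 1 of 10 (*LDHA*) and 7.86% of genes at an unadjusted p under 0.05. DESeq2 called 1 of 10 there (*LDHA*), where 1.89% of genes passed. The PF cows were clear of the TN cows in 4 of 10 genes (*LDHA*, *FBP1*, *LDHB* and *PCK2*, each higher in PF), against 13.3% of all genes, or 6.92% with PF higher. HS cows were clear of TN cows in 1 of 10, against 16.1% of all genes (8.65% with HS higher), and of PF cows in 1 of 10, against 10.6% (4.49% with HS lower), each time *LDHA*. A fold change of 1.5 in one direction or the other lay inside the 95% interval of all 10 genes in every pair.

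Between PF and TN cows 9 of the 10 genes had a higher mean in PF cows, with a median log2FC of 0.56, where 48.8% of all genes were higher and their median was -0.01. Without TN replicate 1 there were 8 and the median was 0.33. Between HS and TN cows 8 of 10 were higher in HS cows with a median of 0.12, against 49.3% of all genes and a median of -0.01. Without TN replicate 1 there were only 4 of 10 and the median was -0.11, and without HS replicate 3 there were 5 of 10. Between HS and PF cows all 10 genes had a lower mean in HS cows, with a median of -0.35 and a range from -0.49 to -0.10, where 50.9% of all genes were higher in HS cows. Without HS replicate 1, 7 of 10 were lower and the median was -0.15, and without PF replicate 3, 8 of 10 were lower. The 10 genes varied together between cows, so these counts do not rest on independent genes. The comparisons with TN cows share the same 3 TN cows.

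**Figure D2:**
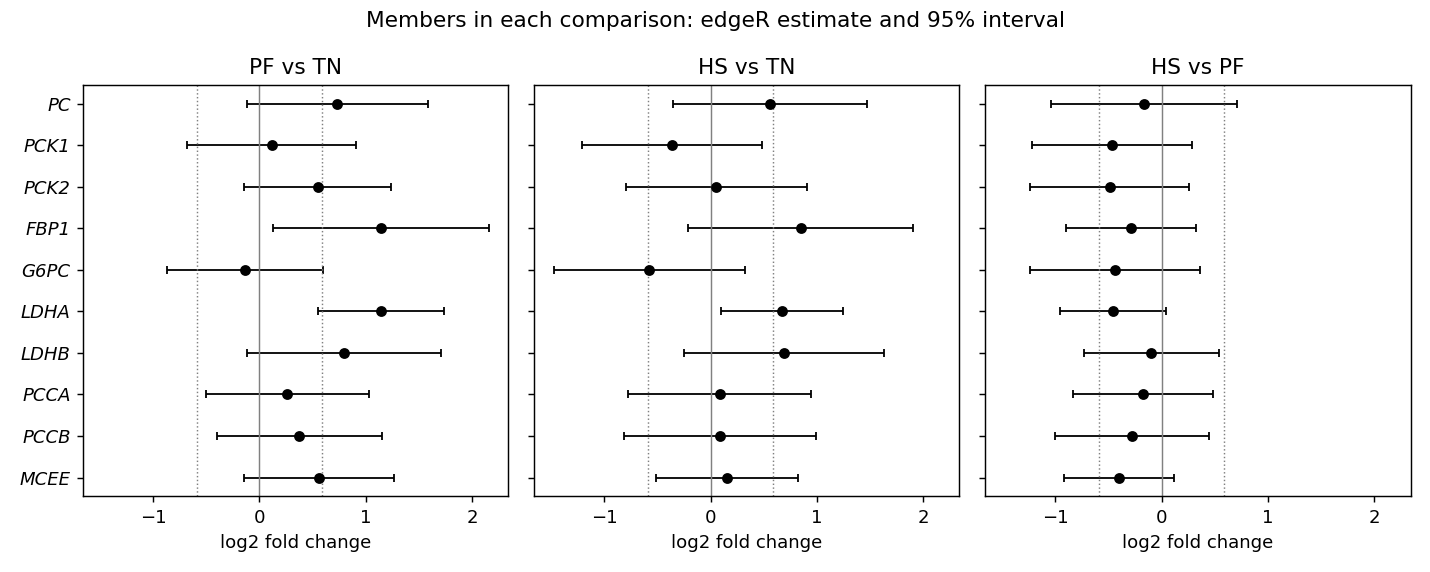
Log2FC of each of the 10 genes in PF against TN, HS against TN and HS against PF cows, as the edgeR estimate (point) with its 95% interval (bar), the dotted lines marking a fold change of 1.5 in either direction. The intervals that leave out 0 are those of *LDHA* and *FBP1* in PF against TN cows and of *LDHA* in HS against TN cows, and all points in the HS against PF panel lie below 0.

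Ratios of counts within a cow do not depend on the size or the normalization of its library. The part of the mix of cells in each biopsy in these ratios was not tested. The balance of *PC* to *PCK1* compares the enzyme that feeds lactate and amino acid carbon into oxaloacetate with the cytosolic enzyme that propionate carbon also passes. There were 0.135, 0.218 and 0.190 *PC* counts for each *PCK1* count in TN replicates 1, 2 and 3. The ratio was 0.292, 0.233 and 0.306 in PF cows and 0.276, 0.403 and 0.327 in HS cows. Each HS cow and each PF cow had a higher ratio than each TN cow, and HS and PF cows overlapped. The lowest ratio was that of TN replicate 1, which also had the lowest hepatocyte marker sum of all cows. On the log2 scale the means were -2.49 ± 0.36 for TN, -1.86 ± 0.21 for PF and -1.59 ± 0.27 for HS cows (SD, n = 3), and without TN replicate 1 the TN mean was -2.30. Of all genes divided by *PCK1* in the same way, 18.8% were also higher in every HS cow than in every TN cow, and 1.65% were higher in every PF cow than in every TN cow.

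The balance of the PEP carboxykinases overlapped between the groups, with 8.01, 5.93 and 6.29 *PCK1* counts for each *PCK2* count in TN, 3.54, 4.90 and 6.12 in PF and 6.03, 7.28 and 3.13 in HS replicates 1, 2 and 3. Its log2 mean was 2.74 ± 0.23 for TN, 2.24 ± 0.40 for PF and 2.37 ± 0.64 for HS cows. The lactate dehydrogenase subunits had 0.220, 0.123 and 0.136 *LDHA* counts for each *LDHB* count in TN, 0.168, 0.219 and 0.166 in PF and 0.227, 0.105 and 0.119 in HS cows. These groups overlapped too, with log2 means of -2.70 ± 0.45, -2.45 ± 0.22 and -2.82 ± 0.60. TN replicate 1 and HS replicate 1 had the highest *LDHA* to *LDHB* ratios of the 9 cows.

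**Figure D3:**
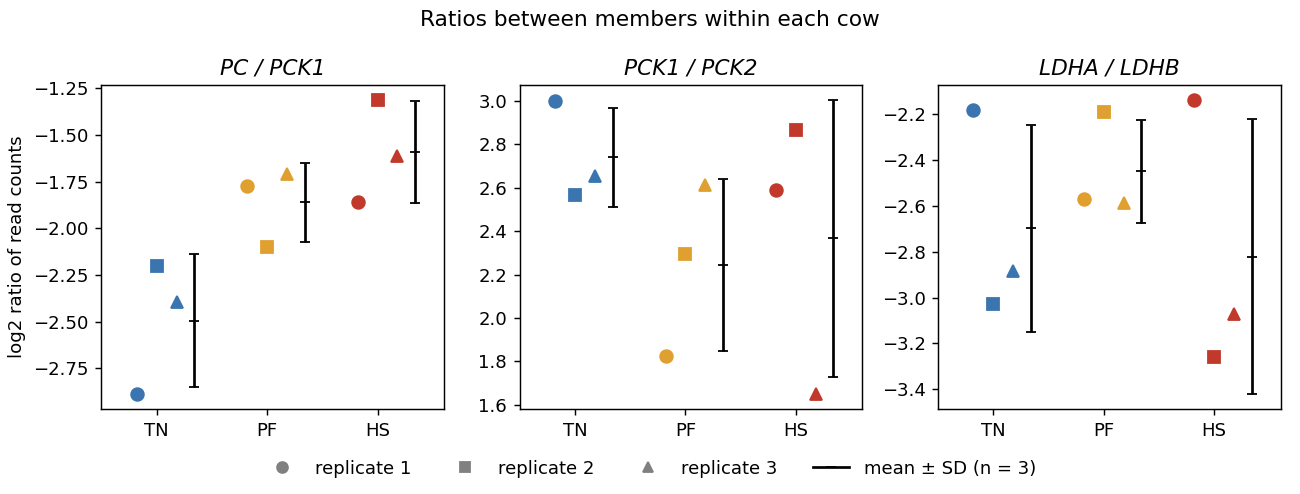
Log2 ratio of the read counts of 2 genes within each cow (symbols for the replicate number), with the mean ± SD of the 3 cows of the TN, PF and HS groups beside them. The *PC* to *PCK1* ratio of every PF and HS cow lies above that of every TN cow, while the *PCK1* to *PCK2* and *LDHA* to *LDHB* ratios overlap between the groups.

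Between cows the genes fell into sets that moved together, given here as Pearson's r of log2(CPM + 0.5) over the 9 cows, which share their group differences and the normalization of their libraries. *PCCA* and *PCCB*, the subunits of 1 enzyme, had r = 0.98, and r = 0.98 after each cow's value was taken as the deviation from its group mean. Among 8463 other genes with a mean of at least 10 CPM, *PCCB* was the 2nd most like *PCCA* and *PCCA* the 2nd most like *PCCB*. *FBP1* and *LDHB* also had r = 0.98 both ways, and *FBP1* was the gene most like *LDHB*. *PC* and *PCK1* had r = 0.63 over the cows and r = 0.93 within groups, and *PCK2* and *G6PC* r = 0.74 and 0.94. *LDHA* was hardly related to *PCK1* (r = 0.05) or *G6PC* (r = -0.17). None of these correlations was computed without TN replicate 1. Its deviations from the group mean were -1.26 for *FBP1* and -1.01 for *LDHB*, so taking deviations does not remove its weight.

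TN replicate 1 and HS replicate 1, which were low in most of these genes, had the lowest hepatocyte marker sums of their groups. PF replicate 3 had the lowest sum of the PF cows, 87509 CPM, but was above its group mean in 8 of the 10 genes. The correlation with the summed hepatocyte markers over the 9 cows was 0.95 for *FBP1*, 0.92 for *LDHB*, 0.85 for *PCCA* and 0.81 for *PCCB*, and it was 0.09 for *PCK1* and 0.26 for *G6PC*. Across 8464 genes with a mean of at least 10 CPM the median of this correlation was 0.19 and the upper quartile 0.68. *LDHA* had 0.73, *PCK2* 0.74, *MCEE* 0.78 and *PC* 0.64. On deviations from group means the correlation was 0.65 for *G6PC* and 0.22 for *PCK1*, and the rest lay between 0.48 (*PC*) and 0.94 (*FBP1*). The median across the 8464 genes was then 0.19 and the upper quartile 0.68. All 8 hepatocyte markers had a higher mean in PF than in TN cows and 7 of 8 in HS than in TN cows. Their median log2FCs were 0.64 and 0.75, and of all genes 48.8% and 49.3% were higher. TN replicate 1 was the lowest TN cow in 6 of the 8, and neither these values nor the correlations above were computed without it. Between HS and PF cows, where all 10 genes had a lower mean in HS cows, 4 of 8 hepatocyte markers were higher and 4 lower in HS cows, with a median of 0.02. Their part in the differences of the 10 genes was not tested.

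**Figure D4:**
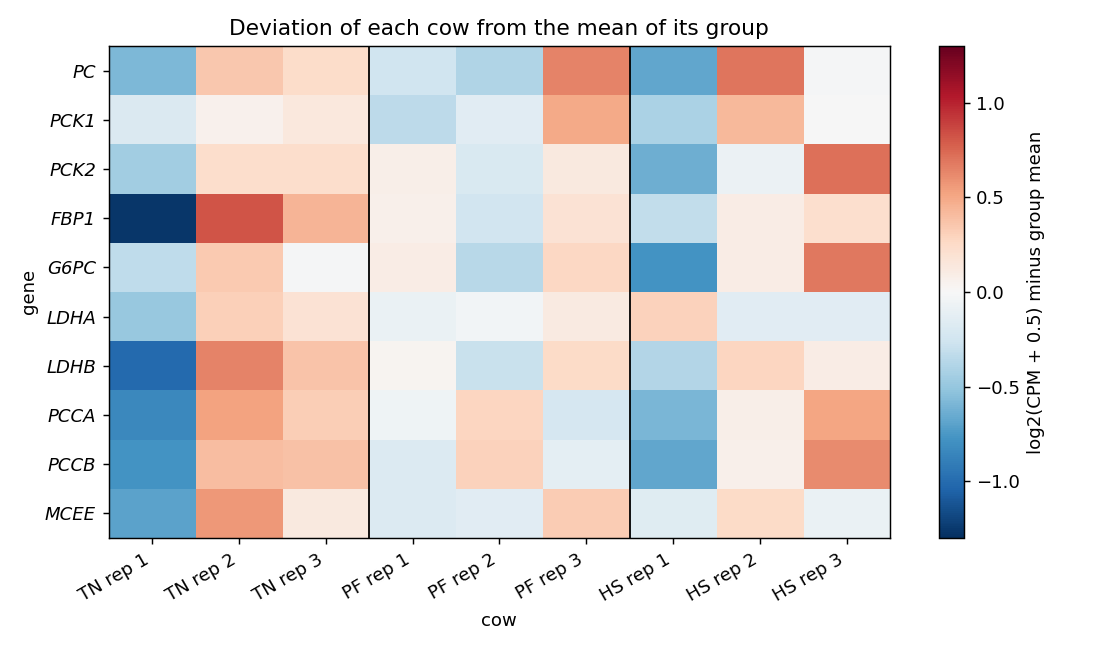
Deviation of each cow from the mean of its own group for each of the 10 genes, as log2(CPM + 0.5) minus the group mean (colour, red above and blue below), with black lines between the TN, PF and HS groups. TN replicate 1 is below its group in all 10 genes and HS replicate 1 in 9, whereas *LDHA* is above its group in HS replicate 1.

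The genes whose level over the 9 cows was most like that of *LDHA* were *TMEM185A* (r = 0.97), *SH3BP5L* (r = 0.95) and *CGNL1* (r = 0.94). *FBP1* was closely matched by *ECH1* and by *LDHB* (r = 0.98 each). For *LDHB* they were *FBP1*, *PLG*, which encodes plasminogen (r = 0.97), and *RAD21L1* (r = 0.97). These correlations too were not computed without TN replicate 1.

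Of 12 other genes of propionate activation and the methylmalonyl-CoA steps, all were tested and 0 were DEGs in any pair. Their median log2FC was 0.32 in PF against TN, 0.09 in HS against TN and -0.20 in HS against PF cows. Over all genes the medians were -0.01, -0.01 and 0.01, and the medians of the list were not computed without TN replicate 1. *MUT*, the older symbol of *MMUT* under which the file lists methylmalonyl-CoA mutase, had 199.6, 361 and 287 CPM in TN, 618, 376 and 322 CPM in PF and 251, 309 and 596 CPM in HS replicates 1, 2 and 3. It lies outside the rule for named genes and is given because it follows *MCEE* in the pathway. *SLC16A7*, a monocarboxylate transporter, had 37.5, 72.8 and 70.5 CPM in TN, 61.0, 106 and 39.2 CPM in PF and 35.4, 26.2 and 45.2 CPM in HS cows. Its log2FC was -0.78 (SE 0.30, FDR 0.487, edgeR) in HS against TN and -0.96 (SE 0.35, FDR 0.780) in HS against PF cows. The HS against TN value was -1.01 (SE 0.25) without TN replicate 1, which edgeR did not call (FDR 0.448) and DESeq2 did (FDR 0.0792). *BTD*, the biotinidase that recycles the cofactor of both carboxylases, was above every TN cow and every HS cow in each PF cow, at 40.2, 41.8 and 35.3 CPM. Its log2FC was 0.77 (SE 0.35, FDR 0.708, edgeR) in PF against TN and -0.42 (SE 0.22, FDR 0.960) in HS against PF cows, and the first was 0.43 (SE 0.24) without TN replicate 1.

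Of 12 genes that carry succinyl-CoA to oxaloacetate or exchange its intermediates across the mitochondrial membrane, 0 were DEGs. Compared with TN cows, 11 had a higher mean in PF and 9 in HS cows, with medians of 0.45 and 0.39. Of all genes tested, 48.8% were higher in PF and 49.3% in HS cows, each with a median of -0.01. TN replicate 1 was the lowest TN cow in all 12, and these counts were not repeated without it. *SDHC*, a membrane subunit of succinate dehydrogenase, had 34.9, 99.0 and 62.8 CPM in TN, 103, 113 and 165 CPM in PF and 84.4, 114 and 214 CPM in HS cows. Its log2FC was 0.95 (SE 0.38, FDR 0.708, edgeR) in PF and 1.05 (SE 0.43, FDR 0.504) in HS against TN cows, or 0.65 and 0.76 without TN replicate 1. *SLC25A11*, the oxoglutarate and malate carrier, had a log2FC of 0.57 (SE 0.24, FDR 0.508) in HS against TN cows, with every HS cow above every TN cow, and 0.46 without TN replicate 1. Of 12 genes of pyruvate, amino acid and glycerol entry, 0 were DEGs. Compared with TN cows, 10 had a higher mean in PF and 10 in HS cows, beside the same shares of all genes. These counts too were not repeated without TN replicate 1. *MPC1*, a subunit of the carrier that brings pyruvate to *PC*, had 59.9, 132 and 119 CPM in TN, 224, 182 and 216 CPM in PF and 109.6, 153 and 159 CPM in HS cows. The PF cows were above all other cows. The log2FC of *MPC1* was 1.00 (SE 0.34, unadjusted p 0.0135, FDR 0.697, edgeR) in PF against TN and -0.57 (SE 0.26, unadjusted p 0.0475, FDR 0.924) in HS against PF cows, the first becoming 0.73 (SE 0.25) without TN replicate 1. *GPD1*, which links glycerol 3-phosphate to the pathway, had a log2FC of 0.70 (SE 0.30, FDR 0.518) in HS against TN cows, and 0.58 without TN replicate 1.

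The 10 enzymes of the reversible steps shared with glycolysis had medians of 0.21 in PF and 0.21 in HS against TN cows. Over all genes the median was -0.01 in each, and the medians of the enzymes were not computed without TN replicate 1. In any pair 0 of the 10 enzymes were DEGs or had an unadjusted edgeR p under 0.05. Of all genes, 6.88% (PF and TN), 9.36% (HS and TN) and 5.32% (HS and PF) had such a p. *TPI1*, triosephosphate isomerase, had a log2FC of 0.63 (SE 0.30, FDR 0.949, edgeR) and *ENO3*, an enolase, of -0.55 (SE 0.30, FDR 0.977) in HS against PF cows. Of 4 genes of glucose 6-phosphate transport, the second isoforms and glucose release, 0 were DEGs. *G6PC3*, the ubiquitous form of the phosphatase, had 16.5, 17.6 and 14.02 CPM in TN, 17.9, 17.7 and 19.0 CPM in PF and 26.0, 19.6 and 21.2 CPM in HS cows. Each HS cow was above each other cow, with a log2FC of 0.44 (SE 0.22, FDR 0.538, edgeR) against TN cows, and 0.49 without TN replicate 1. *SLC2A2*, the glucose transporter of hepatocytes, had 168, 276 and 228 CPM in TN, 378, 286 and 261 CPM in PF and 151, 243 and 252 CPM in HS cows, with a log2FC of -0.53 (SE 0.29, FDR 0.985, edgeR) in HS against PF cows.

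In the opposing direction, 25 genes of glycolysis and pyruvate oxidation were listed, of which 24 were tested against TN cows and 23 between HS and PF cows. EdgeR called 0 of them in any pair. DESeq2 called 2 lower in PF than in TN cows (*PFKFB1* and *HK3*), where it called 0.347% of all genes as lower. In HS against TN cows it called 1 lower (*PFKFB2*), where the share was 0.889%. Between HS and PF cows it called 0. *PFKFB1*, the liver form of the enzyme that makes and breaks fructose 2,6-bisphosphate, an activator of glycolysis and inhibitor of *FBP1*, had 343, 207 and 289 CPM in TN, 107, 94.7 and 131 CPM in PF and 141, 194 and 102 CPM in HS replicates 1, 2 and 3. All PF and all HS cows were below all TN cows. Its log2FC was -1.35 (SE 0.32, unadjusted p 0.00148, FDR 0.577, edgeR) in PF and -0.98 (SE 0.34, FDR 0.462) in HS against TN cows, and DESeq2 gave FDRs of 0.00306 and 0.134. The log2FCs of *PFKFB1* were -1.15 and -0.77 without TN replicate 1, with DESeq2 FDRs of 0.0189 and 0.488. *PFKFB2*, another form, had 44.0, 17.0 and 42.0 CPM in TN, 20.6, 15.3 and 22.7 CPM in PF and 18.04, 12.5 and 7.75 CPM in HS cows. It had a log2FC of -1.46 (SE 0.41, FDR 0.382, edgeR) in HS against TN cows, where DESeq2 gave an FDR of 0.0439, although HS replicate 1 was above TN replicate 2. *PFKFB2* had -1.21 without TN replicate 1, and DESeq2 no longer called it (FDR 0.331). *HK3*, a hexokinase of white blood cells, had 8.78, 13.9 and 15.4 CPM in TN, 3.47, 5.16 and 5.99 CPM in PF and 8.28, 11.02 and 13.8 CPM in HS cows. The PF cows were below all others, with log2FCs of -1.39 (SE 0.33, FDR 0.577, edgeR; 0.0942 with DESeq2) against TN cows and 1.16 (SE 0.32, FDR 0.526, edgeR; 0.177 with DESeq2) for HS against PF cows. The first was -1.58 without TN replicate 1 (FDR 0.628, edgeR, and 0.0341 with DESeq2).

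Of 15 transcriptional regulators of gluconeogenesis, edgeR called 0 and DESeq2 called 1, *NR1D1*, higher in HS than in TN and than in PF cows. DESeq2 called 0.863% of all genes as higher in HS than in TN cows and 0.462% as higher in HS than in PF cows. *NR1D1* encodes REV-ERB alpha, a heme-binding repressor of the circadian clock. It had 10.4, 13.3 and 5.79 CPM in TN, 4.64, 2.19 and 6.65 CPM in PF and 14.3, 40.0 and 26.5 CPM in HS replicates 1, 2 and 3. All HS cows were above all others, and TN and PF cows overlapped. The log2FC was 2.57 (SE 0.45, FDR 0.127, edgeR; 4.39e-06 with DESeq2) in HS against PF and 1.42 (SE 0.41, FDR 0.392, edgeR; 0.0484 with DESeq2) in HS against TN cows. The latter was 1.49 (FDR 0.647, edgeR) without TN replicate 1, and DESeq2 no longer called it (FDR 0.134). The PF cows were below all others in *SIK1*, a kinase that restrains the coactivators of CREB. It had 24.8, 13.1 and 16.3 CPM in HS, 12.5, 14.6 and 12.5 CPM in TN and 7.70, 10.9 and 9.21 CPM in PF cows, with a log2FC of 0.96 (SE 0.29, unadjusted p 0.00695, FDR 0.625, edgeR) in HS against PF cows.

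**Figure D5:**
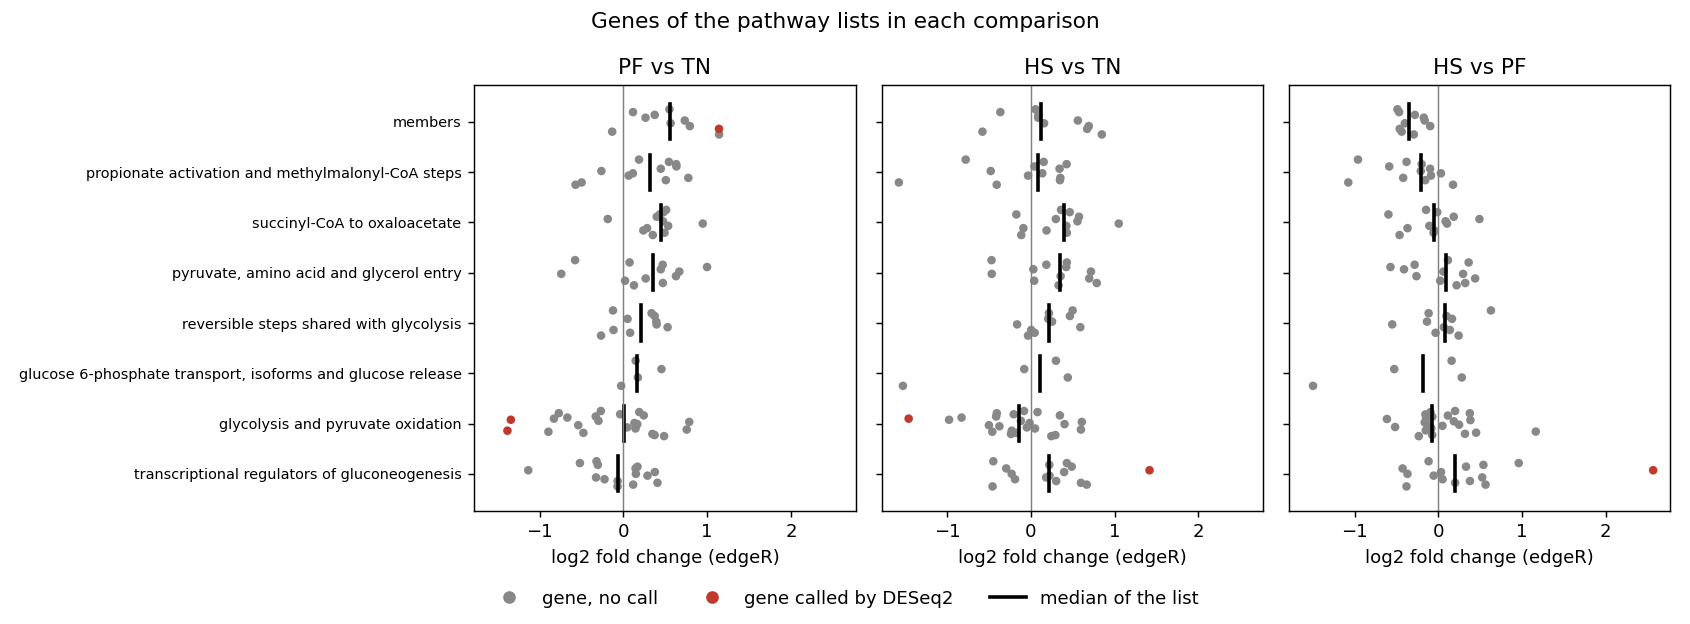
Log2FC (edgeR) of each tested gene of the 10 members and of the other pathway lists in PF against TN, HS against TN and HS against PF cows, with 1 point per gene, a black bar for the median of the list and red for genes called by DESeq2. EdgeR called none of these genes, and the red points are *LDHA*, *PFKFB1* and *HK3* in the first panel, *PFKFB2* and *NR1D1* in the second and *NR1D1* in the third.

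Markers of other cells were read beside these genes. The summed level of 8 Kupffer and myeloid markers was 992 to 2222 CPM in TN, 1176 to 1587 CPM in PF and 1545 to 2410 CPM in HS cows. Singly, 7 of the 8 had a higher mean in HS than in PF cows, 6 of them with no overlap (6.06% of all genes) and 5 with an unadjusted p under 0.05 (3.07% of all genes, edgeR), in the comparison in which all 10 genes had a lower mean and *HK3* a higher one in HS cows. The marker with a lower mean in HS than in PF cows was *CD14*, with a log2FC of -0.40 (edgeR). EdgeR called 0 of the 8 in any pair. DESeq2 called *MARCO* higher in HS than in TN cows (FDR 0.0119), where it called 0.863% of all genes as higher. It called *CD14* higher in PF than in TN cows (FDR 0.0964), where that share was 0.207%. Lymphocyte markers summed to between 52.1 and 86.4 CPM. Erythroid markers summed to 4.09 to 23.2 CPM in TN, 0.587 to 3.07 CPM in PF and 0.876 to 2.52 CPM in HS cows, with *SLC4A1* at 0 counts. For these the TN cows were clear of both other groups. DESeq2 called *HBB* lower in HS than in TN cows (FDR 2.96e-07), where it called 0.889% of all genes as lower, and edgeR did not call it (FDR 0.163). Endothelial markers lay between 485 and 798 CPM, stellate and fibroblast markers between 201 and 476 CPM and cholangiocyte markers between 20.8 and 137 CPM. These endothelial, stellate and fibroblast and cholangiocyte ranges overlapped between the groups. HS replicate 1 was the highest HS cow in each of these sums, at 798, 476 and 110 CPM. HS replicates 2 and 3 had 520 and 599, 224 and 201, and 32.2 and 20.8 CPM. Skeletal muscle markers reached 2.35 CPM at most, with *ACTA1* and *MYH1* at 0 counts, and adipocyte markers 7.07 CPM, with *LEP* at 0 counts. Periportal markers, the zone in which gluconeogenesis is placed, summed to between 2066 and 5420 CPM in TN, 3581 and 4491 CPM in PF and 3160 and 6070 CPM in HS cows. For perivenous markers the sums were 2551 to 6417, 4541 to 6156 and 2616 to 7200 CPM. TN replicate 1 had the lowest sum of all cows for both zones, and the part of other cell types in the differences above was not tested. Genes of the mitochondrial genome took 13.6% to 22.2% of counts in TN, 6.90% to 7.79% in PF and 3.84% to 5.68% in HS cows. With these genes left out before normalization the log2FC of *LDHA* in PF against TN cows was still 1.14.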

How the data were processed

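Liver RNA of 9 cows was measured in 1 library each (TN, PF and HS, n = 3). Per the labels and the methods, the authors filtered the reads with fastp 0.23.2, aligned them to ARS-UCD1.2 with STAR 2.7.9a, allowing at most 3 mismatches, and counted reads per gene with featureCounts 2.0.3. The deposited values are raw counts, without normalization. The annotation release, the strand setting and the handling of multi-mapped reads are not given in the sources used here, so counts of overlapping genes cannot be told apart. All 9 columns were matched to a cow by their labels.

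EdgeR 4.0.16 (R 4.3.3) was run on the 6 libraries of each pair (filterByExpr, TMM, glmQLFit and glmQLFTest), over 14580 to 14582 genes against TN cows and 14510 genes between HS and PF cows, and all 3 groups together on 9 libraries and 15073 genes. DEGs had FDR < 0.1 (Benjamini-Hochberg over all genes tested) with a fold change above 1.5, as the study's methods set. SEs and 95% intervals are those of the fit. Alternatives were DESeq2 1.42.0, RLE size factors, mitochondrial genes left out, other filters, a joint fit of 9 libraries, blocking on the replicate number, a 0.05 FDR threshold, glmTreat and each cow left out. The code was tested on simulated data. Each library came from a separate cow.

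Summed marker levels were given without a test, and single markers by the fits over all genes. The 10 members, the pathway lists and the marker lists were chosen with earlier results of these data known. Named beside the members were the genes of the pathway lists called by edgeR or DESeq2 in any pair, the 2 genes of each list with the smallest p in the 3-group test, and the 3 genes most correlated with each of the 3 members with the smallest p in that test. A gene that this rule names is not reported here. Gene names, overlaps and the match of *MMUT* to *MUT* come from the RefSeq table for ARS-UCD2.0, which is not the build of the files, so no positions are given.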

Additional observations from a re-analysis of the deposited data

How the results depend on the processing

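With edgeR as described, 0 of the 10 genes were DEGs in any pair or among the 3 groups. Comparing HS cows with either other group, this count stayed at 0 in every alternative run. Between PF and TN cows DESeq2 gave 1 and dropping the low-count filter gave 1, and among the 3 groups both settings likewise gave 1, each time *LDHA*. Of 460 log2 fold changes of single genes under the alternatives, 440 kept their sign and their side of the threshold, 2 newly passed it and 18 changed sign. The sign changes fell on 10 of 30 gene and pair combinations, whose log2 fold changes with edgeR as described lay between -0.17 and 0.26. With 1 cow left out at a time, HS against TN cows ranged from -0.39 to 0.33 for *PCK2*, from -0.21 to 0.34 for *PCCA*, from -0.27 to 0.37 for *PCCB* and from -0.11 to 0.47 for *MCEE*. HS against PF cows ranged from -0.58 to 0.23 for *PC*, from -0.24 to 0.063 for *LDHB* and from -0.46 to 0.065 for *PCCA*. PF against TN cows ranged from -0.16 to 0.27 for *PCK1*, from -0.27 to 0.050 for *G6PC* and from -0.037 to 0.52 for *PCCA*. With TN replicate 1 and HS replicate 1 left out together, chosen after seeing the data, *MCEE* in HS against TN cows was -0.033 and the count of DEGs among the 10 stayed at 0. Of 30 log2 fold changes of the other named pathway genes against TN cows, 29 kept their sign and their side of the threshold with edgeR without TN replicate 1, also chosen after seeing the data, and *SLC16A7* in PF against TN cows turned from 0.18 to -0.049.

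The labels do not say that replicate numbers pair the cows, although the paper matched the intake of PF cows to HS counterparts. Of 9 pairs of libraries with the same number, 3 had deviations from the group means that correlated above 0.1. The range was -0.22 to 0.24, against -0.31 to 0.30 for pairs with different numbers. In all, 1 of 9 libraries correlated best with its own number. With 3 cows a group these correlations cannot exclude a pairing. With the replicate block 0 of the 10 genes were DEGs in every pair and among the 3 groups, *PCK2* in HS against TN cows was -0.029, and DEGs over all genes numbered 33 in place of 13 (HS and TN), 6 in place of 4 (HS and PF) and 1 in place of 0 (PF and TN). In the same order the counts were 270, 122 and 91 by DESeq2 and 124, 98 and 136 with no filter, and they ranged over 0 to 39, 5 to 10 and 0 to 14 with 1 cow left out. The highest and lowest of the first range came without TN replicate 2 and without HS replicate 2. With 3 cows a group, the SEs of the 10 genes lay between 0.23 and 0.47 on the log2 scale.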
